A study of Bos taurus with 6 samples.

Results

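The genes of the PPAR and RXR nuclear receptors and of the PGC-1 coactivators were described in bovine preadipocytes transfected with an agomir of bta-miR-484. These are PPARA, PPARD and PPARG, RXRA, RXRB and RXRG, and PPARGC1A, PPARGC1B and PPRC1, which makes 9 of the 23475 genes with an expression value, found by their symbols. The family was chosen by the values of PPARA, which lay higher with the agomir in these same libraries. The levels of PPARA are therefore a description with no test, whereas the other 8 genes were taken by family name, with earlier results of these data known.

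PPARs are receptors for fatty acids and their derivatives, and each binds DNA as a pair with an RXR, the receptor for 9-cis retinoic acid. PPARA is best known for switching on fatty acid oxidation, PPARG for driving preadipocytes to become adipocytes, and PPARD for fatty acid use in many tissues. Coactivators of the PGC-1 family bind these receptors and other factors and raise transcription, above all of genes for mitochondria.

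The cells were primary preadipocytes from the subcutaneous fat of calves, grown in medium with fetal bovine serum. One group was transfected with the bta-miR-484 agomir, a modified RNA duplex used to raise this miRNA, and the other with the agomir NC, the negative control RNA, whose libraries are called the controls. Total RNA was taken from both groups 48 h after transfection and sequenced, with 3 libraries a group. It is not stated whether samples of the same group were from different calves, so p-values measure the spread between these samples, which may be technical.

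Levels are given in FPKM, fragments scaled to transcript length and to the mapped fragments of the library, so that different genes can be set side by side. Summed FPKM per library ranged from 365977 to 379361, and 16207 to 16360 genes lay above 0. Read numbers were not used here, and sequencing depth is unknown. Differences between the groups are log2 fold changes of FPKM + 0.5 from limma, fitted over the 12422 genes whose mean reached 0.5 FPKM.

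The labels call the cells adipocytes, and the markers showed cells of the fibroblast kind. The 12 markers of preadipocytes and fibroblasts summed to 23469, 24363 and 23416 FPKM under the agomir and to 23231, 24399.8 and 23640.2 FPKM in the controls. These sums came mostly from collagens, and COL3A1, a fibrillar collagen, was the most abundant marker at a mean of 7623 FPKM. PDGFRA, a receptor of fat cell precursors, had a mean of 166 FPKM. In the same list DLK1 was at 0 in all 6 libraries, and CD34 had a mean of only 0.481 FPKM. The list thus did not tell preadipocytes from other fibroblasts. DCN, a matrix proteoglycan, was below in all agomir libraries, at 2863 ± 31.3 against 3114 ± 129 FPKM (adjusted p = 0.376 and unadjusted p = 0.0196 in limma), and ZNF423, a factor of preadipocyte commitment, above in all of them, at 5.98 ± 0.305 against 5.33 ± 0.217 FPKM (adjusted p = 0.516 and unadjusted p = 0.0785, agomir against agomir NC, SD, n = 3 each). Of all genes, 6.36% lay below and 10.9% above in this way, and the groups overlapped in the other markers of this list. The unadjusted p of DCN in limma was above 0.05 without agomir replicate 1 (0.0694) or agomir replicate 3 (0.0733). It was also above 0.05 with no filter (0.0909) and with no variance trend (0.0711), while that of ZNF423 was 0.0470 with no variance trend. Quantile normalization gives genes of equal rank equal values, and it left DCN, at percentile 99.95 of mean FPKM, with no difference. That fit therefore cannot test DCN. The 5 markers of mature adipocytes summed to only 3.57, 3.65 and 2.99 FPKM under the agomir and to 4.71, 3.65 and 4.46 FPKM in the controls. FABP4 led them with a mean of 2.39 FPKM, PLIN1, a coat protein of lipid droplets, had a mean of 1.23 FPKM, and ADIPOQ, CIDEC and LEP, which define the mature cell, had means of 0.140, 0.0709 and 0.0091 FPKM. The mature adipocyte sum was thus low in both groups and lower with the agomir, if only just in the nearest pair of libraries, both at 3.65 FPKM (p = 0.1 in an exact permutation test, two-sided, the smallest that this design of 3 against 3 can reach), and its part in the values below was not tested. Within it FABP4 was lower with the agomir, at 1.896 ± 0.400 against 2.89 ± 0.679 FPKM, and PLIN1 higher, at 1.31 ± 0.220 against 1.14 ± 0.156 FPKM (SD, n = 3 each), and both overlapped between the groups. PDGFRA, CD34, DCN, ZNF423, PLIN1, ADIPOQ, CIDEC and LEP were named after their values were seen.

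Across all genes tested, 1 passed an adjusted p of 0.05 in limma, which is 0.00805%. At an unadjusted p under 0.05, 824 genes (6.63%) were higher and 535 (4.31%) lower with the agomir. With median-ratio scaling these counts were 673 and 688, so the excess of higher genes was not seen there. The median log2 fold change of all genes was 0.013, and the middle 50% lay between -0.063 and 0.087. All 3 agomir libraries lay above all 3 agomir NC libraries in 10.9% of the genes, and below them in 6.36%.

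PPARA was listed at 5.96, 5.14 and 6.23 FPKM under the agomir, against 3.47, 3.80 and 3.23 FPKM in the controls. Each agomir library lay above each agomir NC library, with a gap from 3.80 to 5.14 FPKM between the groups. The ratio of the means was 1.65 and the log2 fold change 0.65, which ranged from 0.59 to 0.72 with each library left out in turn. In bulk RNA such as this, fewer cells of a type and less RNA per cell cannot be told apart.

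PPARG, the receptor of adipogenesis, stood at 3.99, 3.69 and 3.91 FPKM under the agomir, against 3.39, 3.34 and 2.96 FPKM in the controls. The agomir libraries were again the higher ones and the groups did not overlap, but the step between the nearest libraries was only from 3.39 to 3.69 FPKM. A log2 fold change of 0.23 (standard error 0.090) resulted, at adjusted p = 0.407 and unadjusted p = 0.0310 in limma. The latter was 0.0855 without agomir replicate 1, 0.0760 without agomir replicate 3 and 0.102 without agomir NC replicate 3, which put PPARG above 0.05.

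PPARD, the most widely expressed PPAR, stood at 5.63, 6.12 and 6.03 FPKM under the agomir, against 5.95, 6.19 and 6.28 FPKM in the controls. The groups overlapped, with agomir replicate 1 the lowest library. The log2 fold change was -0.047 (standard error 0.073, 95% confidence interval -0.21 to 0.12), with an adjusted p of 0.857 in limma, and p was 0.4 in the exact permutation test, two-sided. Without agomir replicate 1 the log2 fold change of PPARD was -0.014, while quantile normalization gave -0.073 and the correction for gene span described below -0.085.

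The make-up of the PPAR transcripts differed between the groups along with PPARA. PPARA made up 38.2%, 34.4% and 38.5% of summed PPAR FPKM with the agomir and 27.1%, 28.5% and 25.9% with the agomir NC. PPARD held the complementary share, at 38.1 ± 2.50% with the agomir and 47.8 ± 2.28% with the agomir NC (SD, n = 3 each), while PPARG took 24.8 ± 0.734% and 25.1 ± 1.37%. In the agomir NC libraries PPARD was the most abundant PPAR in 3 of 3, with 0.571 ± 0.0515 FPKM of PPARA for each FPKM of PPARD. With the agomir this ratio was 1.06, 0.840 and 1.03, so PPARA passed PPARD in replicates 1 and 3 but not in replicate 2. These shares carry the PPARA difference that chose the family and have no test.

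**Figure D1:**
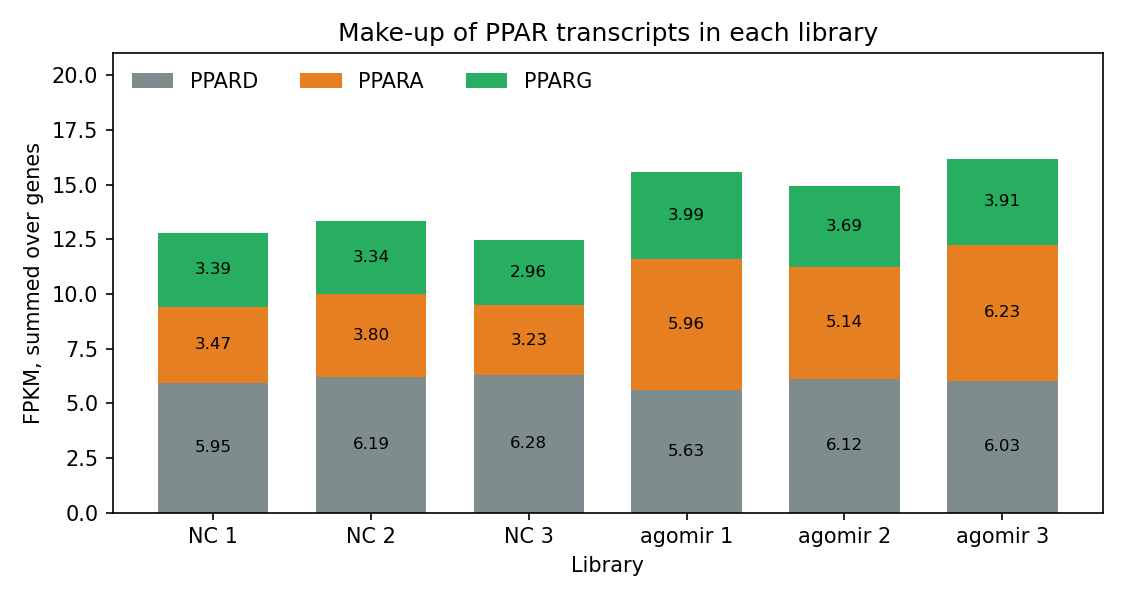
FPKM of PPARD, PPARA and PPARG stacked for each of the 6 libraries, with the FPKM of each gene printed in its part of the bar. PPARA takes from 34.4% to 38.5% of the bar in the agomir libraries and from 25.9% to 28.5% in the agomir NC libraries.

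Of the RXR partners, RXRA, the main RXR of liver, was listed at 14.2, 14.9 and 14.7 FPKM under the agomir, against 12.9, 13.8 and 13.7 FPKM in the controls. All agomir libraries were higher, by a small step from 13.8 to 14.2 FPKM. The log2 fold change was 0.12 (standard error 0.058), with adjusted p = 0.502 and unadjusted p = 0.0704 in limma.

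RXRB, expressed in nearly all tissues, stood at 14.0, 13.7 and 17.0 FPKM under the agomir, against 12.1, 12.4 and 13.0 FPKM in the controls. The groups did not overlap, and agomir replicate 3 was far above the other libraries. For RXRB the log2 fold change was 0.24 (standard error 0.083), at adjusted p = 0.364 and unadjusted p = 0.0169 in limma. Without agomir replicate 3 it was 0.15, at an unadjusted p of 0.0687, and without agomir NC replicate 1 it was 0.22, at 0.0522, so that leaving out either of these ended the place of RXRB under 0.05.

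RXRG, the RXR of muscle and brain, was listed at 0 in all 6 libraries and was not tested. RXR transcripts were thus those of RXRA and RXRB in near equal parts, with RXRA at 49.6 ± 2.90% of summed RXR FPKM with the agomir and 51.8 ± 0.763% with the agomir NC (SD, n = 3 each). Summed RXR was 29.5 ± 1.93 and 25.9 ± 0.883 FPKM, and summed PPAR, which holds PPARA, was 15.6 ± 0.616 and 12.9 ± 0.440 FPKM (agomir and agomir NC, SD, n = 3 each). RXR transcripts exceeded PPAR transcripts in all 6 libraries, by a ratio from 1.81 to 2.14, and the groups overlapped in this ratio.

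PPARGC1A encodes PGC-1 alpha, the inducible coactivator of mitochondrial genes. It was listed at 4.94, 5.42 and 6.70 FPKM under the agomir, against 5.06, 5.66 and 5.88 FPKM in the controls. The groups overlapped, since the agomir libraries held both the lowest and the highest value. The log2 fold change was 0.028 (standard error 0.11), with an adjusted p of 0.953 in limma, and it was -0.086 without agomir replicate 3 and -0.029 without agomir NC replicate 1, but 0.12 when agomir replicate 1 was left out.

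PPARGC1B encodes PGC-1 beta, the closest relative of PGC-1 alpha. It stood at 1.02, 1.06 and 0.974 FPKM under the agomir, against 0.723, 0.772 and 0.722 FPKM in the controls. The agomir libraries were the higher ones with no overlap, at levels so low that the added 0.5 FPKM shrinks the difference. The ratio of the means was 1.38 and the log2 fold change 0.29 (standard error 0.13), at adjusted p = 0.439 and unadjusted p = 0.0423 in limma. The unadjusted p of PPARGC1B was 0.0805 in the fit with a replicate block and from 0.0653 to 0.103 with any 1 library left out, so that each of these ended its place under 0.05.

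PPRC1, the growth-regulated member of the PGC-1 family, was listed at 10.8, 11.2 and 10.2 FPKM under the agomir, against 10.5, 9.04 and 9.16 FPKM in the controls. The groups overlapped through agomir NC replicate 1. The log2 fold change was 0.16 (standard error 0.076), with adjusted p = 0.482 and unadjusted p = 0.0627 in limma, the latter at 0.0138 without agomir NC replicate 1. Among PGC-1 transcripts PPRC1 held the greater part, 61.6 ± 3.96% with the agomir and 60.4 ± 3.62% with the agomir NC, and PPARGC1B held 5.84 ± 0.352% and 4.67 ± 0.290% (SD, n = 3 each).

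**Figure D2:**
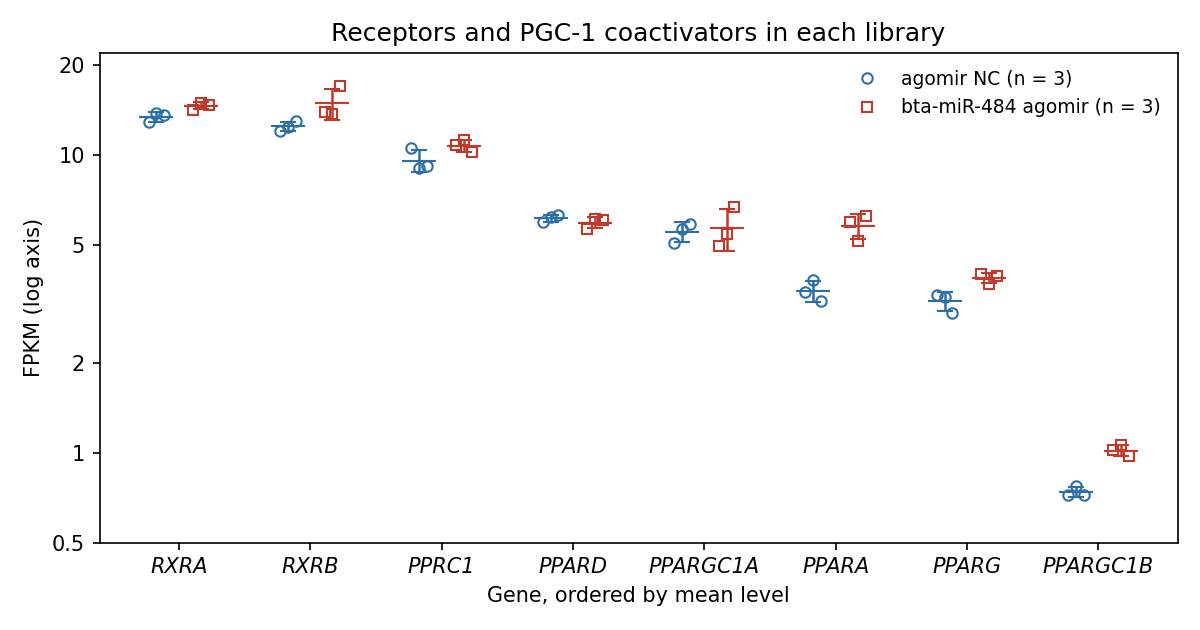
FPKM on a log axis of the 8 genes with values above 0, ordered by mean level. Open symbols are single libraries, squares for the agomir and circles for the agomir NC, and lines give the mean and SD of 3 libraries. The groups do not overlap for PPARA, PPARG, RXRA, RXRB and PPARGC1B.

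Of the 8 family members other than PPARA, 7 passed the minimum and were tested, and 0 passed an adjusted p of 0.05 in limma, where 0.00805% of all genes did. At an unadjusted p under 0.05, PPARG, RXRB and PPARGC1B were higher, 3 of 7 against 6.63% of all genes, and 0 were lower, against 4.31%. All agomir libraries lay above all agomir NC libraries in PPARG, RXRA, RXRB and PPARGC1B, 4 of 7 against 10.9% of all genes, and below them in 0 of 7, against 6.36%. For each of these 4 an exact permutation p of 0.1 was found, the smallest possible, and the test gave 0.2 for PPRC1 and 0.9 for PPARGC1A. The median log2 fold change of the 7 was 0.16, and 6 were positive, where 55.1% of all genes tested were. Of these 6, PPARGC1A turned to -0.0096 when the trend with gene span was removed. With that correction RXRB alone was higher at an unadjusted p under 0.05, as it was without agomir replicate 1 or agomir NC replicate 3, and 0 genes were without agomir replicate 3.

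In level the family covered a wide span. RXRA, with a mean of 14.0 FPKM over the 6 libraries, and RXRB, with 13.7 FPKM, led it and overlapped with each other, RXRA being higher in 5 of 6 libraries. PPRC1 followed at 10.2 FPKM, and its values overlapped with neither RXRB above nor PPARD below. PPARD at 6.03, PPARGC1A at 5.61, PPARA at 4.64 and PPARG at 3.55 FPKM each overlapped with the next in order over the 6 libraries, though PPARA was above PPARG in 6 of 6. The place of PPARA in this order depended on the group, since its mean was 5.77 FPKM under the agomir, beside 5.69 FPKM for PPARGC1A, and 3.50 FPKM in the controls, beside 5.53 FPKM. PPARGC1B, at 0.879 FPKM, lay below all of them without overlap. Set among all genes tested, RXRA stood at percentile 65.7 of mean FPKM, PPARG at 27.7 and PPARGC1B at 6.92.

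Other proteins that the receptors work through were looked at as a list of 18 coactivators and corepressors, all of which were tested. In limma 0 were under an adjusted p of 0.05, while at an unadjusted p under 0.05, 1 was higher and 1 lower, near the 6.63% and 4.31% of all genes. With 1 library left out, 0 were higher without agomir replicate 2 or agomir NC replicate 3 and 2 without agomir NC replicate 2, while 0 were lower without agomir replicate 1, agomir NC replicate 2 or agomir NC replicate 3. NCOR1, a corepressor that holds unliganded receptors silent, stood at 24.5, 25.7 and 24.7 FPKM under the agomir, against 23.9, 22.6 and 20.1 FPKM in the controls. HDAC3, the deacetylase that NCOR1 recruits, stood at 23.2, 23.8 and 24.0 FPKM under the agomir, against 25.02, 26.8 and 26.2 FPKM in the controls. So NCOR1 was higher (log2 fold change 0.17) and HDAC3 lower (-0.13) with the agomir, in each case without overlap of the groups, at adjusted p = 0.406 and 0.398 in limma, and NCOR1 was at 0.10 without agomir NC replicate 3. The acetyltransferase EP300, named after its values were seen, also lay above in all agomir libraries, so that 2 of 18 were above and 1 was below, near the 10.9% and 6.36% of all genes. TBL1X, a subunit of the corepressor complex and among the most abundant of the list, had a mean of 34.1 FPKM and overlapped between the groups. As a whole the list had a median log2 fold change of 0.052, which was 0.020 without agomir replicate 2, 0.027 without agomir NC replicate 3, 0.026 with quantile normalization and 0.027 with the correction for gene span.

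RXR also pairs with other receptors, of which 13 were listed. The bile acid and xenobiotic receptors NR1H4, NR1I2 and NR1I3 had means under 0.5 FPKM, and 10 were tested. In limma 0 passed an adjusted p of 0.05, and 0 were higher and 0 lower at an unadjusted p under 0.05, where 6.63% and 4.31% of all genes were, though 1 was lower without agomir NC replicate 1. VDR, the vitamin D receptor, was the most abundant, at 104 ± 3.53 FPKM under the agomir and 110.1 ± 6.36 FPKM in the controls (SD, n = 3 each), above RARA, a retinoic acid receptor with a mean of 28.3 FPKM. Both overlapped between the groups. The thyroid hormone receptor gene THRA, named after its values were seen, was the 1 gene of 10 with all agomir libraries below, between 6.32 and 6.68 FPKM against 7.09 to 7.46 FPKM, and 0 lay above, where 6.36% of all genes lay below and 10.9% above. The median log2 fold change was -0.072, opposite in sign to that of the PPAR and RXR family, though it was 0.0059 without agomir NC replicate 2, -0.0205 with no filter and -0.014 without agomir replicate 3.

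The targets of the receptors were read from gene lists. Of 20 genes of fatty acid oxidation known as PPARA targets, 17 were tested and 0 passed an adjusted p of 0.05 in limma, with 2 higher and 0 lower at an unadjusted p under 0.05, where 6.63% of all genes were higher and 4.31% lower. With 1 library left out, 0 were higher without agomir NC replicate 3 and 1 with each of the other 5 left out, and 1 was lower without replicate 3 of either group. ACADM, the medium-chain acyl-CoA dehydrogenase of mitochondria, stood at 13.8, 12.8 and 14.2 FPKM under the agomir, against 11.7, 12.9 and 11.95 FPKM in the controls. The agomir libraries of ACADM were higher on average, and agomir replicate 2 and agomir NC replicate 2 overlapped. The log2 fold change was small, 0.15, at adjusted p = 0.442 in limma.

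The most abundant genes of that list, ACADVL and HADHA of long-chain oxidation, had means of 46.2 and 44.6 FPKM and log2 fold changes of 0.015 and 0.062, the latter at 0.040 with the correction for gene span, while that of ACADVL was -0.016 without agomir replicate 1 and -0.023 without agomir NC replicate 2. HADHA and CPT2, the latter named after its values were seen, lay above in all agomir libraries, and over the list 3 of 17 genes lay above and 0 below, where 10.9% and 6.36% of all genes did. The classic PPARA targets differed in level more than between the groups, and 3 were named after their values were seen. CPT1A, the gate of mitochondrial fatty acid uptake, was at 21.04 ± 0.982 and 20.1 ± 1.42 FPKM (agomir and agomir NC, SD, n = 3 each), and its groups overlapped. PDK4, a kinase that turns off glucose oxidation, was at most 0.0544 FPKM in any library, and CPT1B, the muscle form, had a mean of 0.210 FPKM. Over the list the median log2 fold change was 0.015, beside 0.013 for all genes, and it lay between 0.0030, without agomir NC replicate 3, and 0.059, without agomir NC replicate 1, with any 1 library left out.

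Of 16 lipid genes that more than 1 PPAR controls, 15 had a value and 10 were tested. In limma 0 were under an adjusted p of 0.05, while at an unadjusted p under 0.05, 1 was higher and 3 lower, where 6.63% and 4.31% of all genes were, and 1 was lower without agomir replicate 2 or 3. ANGPTL4, a secreted inhibitor of lipoprotein lipase, stood at 4.76, 4.85 and 4.37 FPKM under the agomir, against 5.57, 6.24 and 5.92 FPKM in the controls. FABP3, a fatty acid carrier, stood at 24.6, 20.1 and 21.7 FPKM under the agomir, against 24.8, 26.2 and 25.5 FPKM in the controls. PLIN2, a coat protein of lipid droplets and the most abundant of the list, stood at 162, 170.2 and 167 FPKM under the agomir, against 173, 174 and 195 FPKM in the controls. In all 3 genes the agomir libraries were the lower ones without overlap, though agomir replicate 1 of FABP3 nearly reached the agomir NC. Over the list 1 of 10 genes lay above and 3 below in all agomir libraries, where 10.9% and 6.36% of all genes did.

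Their log2 fold changes were -0.31 for ANGPTL4, -0.20 for FABP3 and -0.12 for PLIN2, at adjusted p = 0.284, 0.370 and 0.447 in limma, and PLIN2 was at -0.063 without agomir NC replicate 3. TXNIP, a regulator of glucose uptake, was the 1 higher gene, at 75.5, 79.9 and 74.1 FPKM under the agomir, against 59.95, 58.2 and 65.8 FPKM in the controls. All agomir libraries of TXNIP were higher, by a log2 fold change of 0.32 (standard error 0.055), and its adjusted p of 0.122 in limma was the lowest in any of the lists. The median log2 fold change of the list was -0.082, and 1 of the 10 tested genes was positive, where 55.1% of all genes tested were. The median was -0.050 without agomir replicate 3 and -0.023 with no filter. UCP3 and CREB3L3 were listed at 0 in all libraries, and FGF21, VNN1 and G0S2 had means under 0.5 FPKM. FGF21 was above 0 in all agomir libraries, at 0.0610, 0.0898 and 0.0408 FPKM, and at 0 in the 3 agomir NC libraries (exact permutation p = 0.1), values far under the minimum and picked out after they were seen.

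Of 21 adipogenic genes known as PPARG targets, 13 were tested and 0 passed an adjusted p of 0.05 in limma. At an unadjusted p under 0.05, 0 were higher and 2 lower, where 6.63% and 4.31% of all genes were, and 1 was lower with any 1 library left out. FABP4, the fatty acid carrier of adipocytes, stood at 1.82, 2.33 and 1.54 FPKM under the agomir, against 3.57, 2.21 and 2.88 FPKM in the controls. SCD, which makes monounsaturated fatty acids, stood at 88.2, 86.4 and 90.4 FPKM under the agomir, against 89.9, 104 and 97.6 FPKM in the controls. The agomir libraries were lower on average in both genes, and in both the groups overlapped, by 1 library on each side. The log2 fold changes were -0.49 for FABP4 and -0.14 for SCD, at adjusted p = 0.363 and 0.422 in limma, and SCD was at -0.084 without agomir NC replicate 2.

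FASN, the fatty acid synthase, had a mean of 34.8 FPKM, with all agomir libraries, between 33.1 and 33.8 FPKM, below all agomir NC libraries, of which the lowest was 34.1 FPKM. LPL, the lipase that feeds fat cells, was at 3.83 ± 0.446 and 3.64 ± 0.154 FPKM, and CEBPA, the partner factor of PPARG in adipogenesis, at 0.632 ± 0.212 and 0.438 ± 0.256 FPKM (agomir and agomir NC, SD, n = 3 each). Both overlapped between the groups. CIDEA, a lipid droplet protein named after its values were seen, was the 1 gene of 13 with all agomir libraries above, and FASN the 1 gene below, where 10.9% and 6.36% of all genes were. The genes of the mature fat cell PLIN4, ADIPOQ, CIDEC, AQP7, PCK1, SLC2A4, DGAT2 and LEP had means under 0.5 FPKM. Over these targets the median log2 fold change was -0.0049, and it lay between -0.10, without agomir replicate 3, and 0.043, without agomir NC replicate 2, with any 1 library left out.

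Beyond the receptors, PGC-1 coactivators work with nuclear respiratory factors and with the ERR receptors. Of 12 such partners and mitochondrial regulators 10 were tested, since ESRRB was listed at 0 and ESRRG had a mean under 0.5 FPKM. In limma 0 passed an adjusted p of 0.05, 0 were higher and 0 lower at an unadjusted p under 0.05, and the groups overlapped in all 10. Of all genes 6.63% were higher and 4.31% lower at that threshold, and the groups lay apart in 10.9% (agomir above) and 6.36% (agomir below). Without agomir NC replicate 2, 1 partner was higher. The most abundant were YY1, a transcription factor that binds PGC-1 alpha, at 18.5 ± 1.93 and 17.8 ± 2.29 FPKM, and GABPA, a nuclear respiratory factor, at 12.7 ± 0.759 and 12.5 ± 0.693 FPKM (agomir and agomir NC, SD, n = 3 each). Their median log2 fold change was 0.044, and it was 0.026 without agomir NC replicate 3, 0.029 with median-ratio scaling and 0.026 with quantile normalization.

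Retinoids supply the ligand of RXR, and 14 genes of their transport, synthesis and breakdown were listed, of which 9 were tested. In limma 0 were under an adjusted p of 0.05, while at an unadjusted p under 0.05, 2 were higher and 3 lower, so 5 of 9 were at an unadjusted p under 0.05 where 6.63% and 4.31% of all genes were higher and lower. Without agomir replicate 1 or agomir NC replicate 1, 1 was higher. All agomir libraries lay above the agomir NC in 2 of the 9 and below it in 2, where 10.9% and 6.36% of all genes did. CRABP2, which carries retinoic acid to its receptors, stood at 20.4, 15.9 and 18.1 FPKM under the agomir, against 25.2, 20.4 and 26.1 FPKM in the controls. All agomir libraries of CRABP2 were lower, yet the highest of them came within 0.1 FPKM of the lowest agomir NC library.

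CYP26B1, which breaks retinoic acid down, stood at 3.201, 2.18 and 2.44 FPKM under the agomir, against 1.17, 2.01 and 2.06 FPKM in the controls. All agomir libraries were higher, by a step from 2.06 to 2.18 FPKM. The log2 fold changes were -0.39 for CRABP2 and 0.48 for CYP26B1, at adjusted p = 0.306 and 0.400 in limma, and that of CYP26B1 was 0.28 without agomir NC replicate 1. ALDH1A1, which makes retinoic acid, and DHRS3, which turns retinal back to retinol, were also at an unadjusted p under 0.05 and were named after their values were seen. ALDH1A1 was higher without overlap, at 6.70 ± 0.197 against 5.61 ± 0.265 FPKM, and DHRS3 lower with overlap, at 6.48 ± 0.741 against 7.77 ± 0.826 FPKM (agomir against agomir NC, SD, n = 3 each). The most abundant, RBP4, which carries retinol in blood, and ALDH1A3 had means of 74.6 and 24.5 FPKM and overlapped. Over the retinoid genes the median log2 fold change was -0.015, and it was 0.034 without agomir NC replicate 3. Leaving out agomir replicate 2 gave 0.0092, and leaving out agomir NC replicate 2 gave -0.051.

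**Figure D3:**
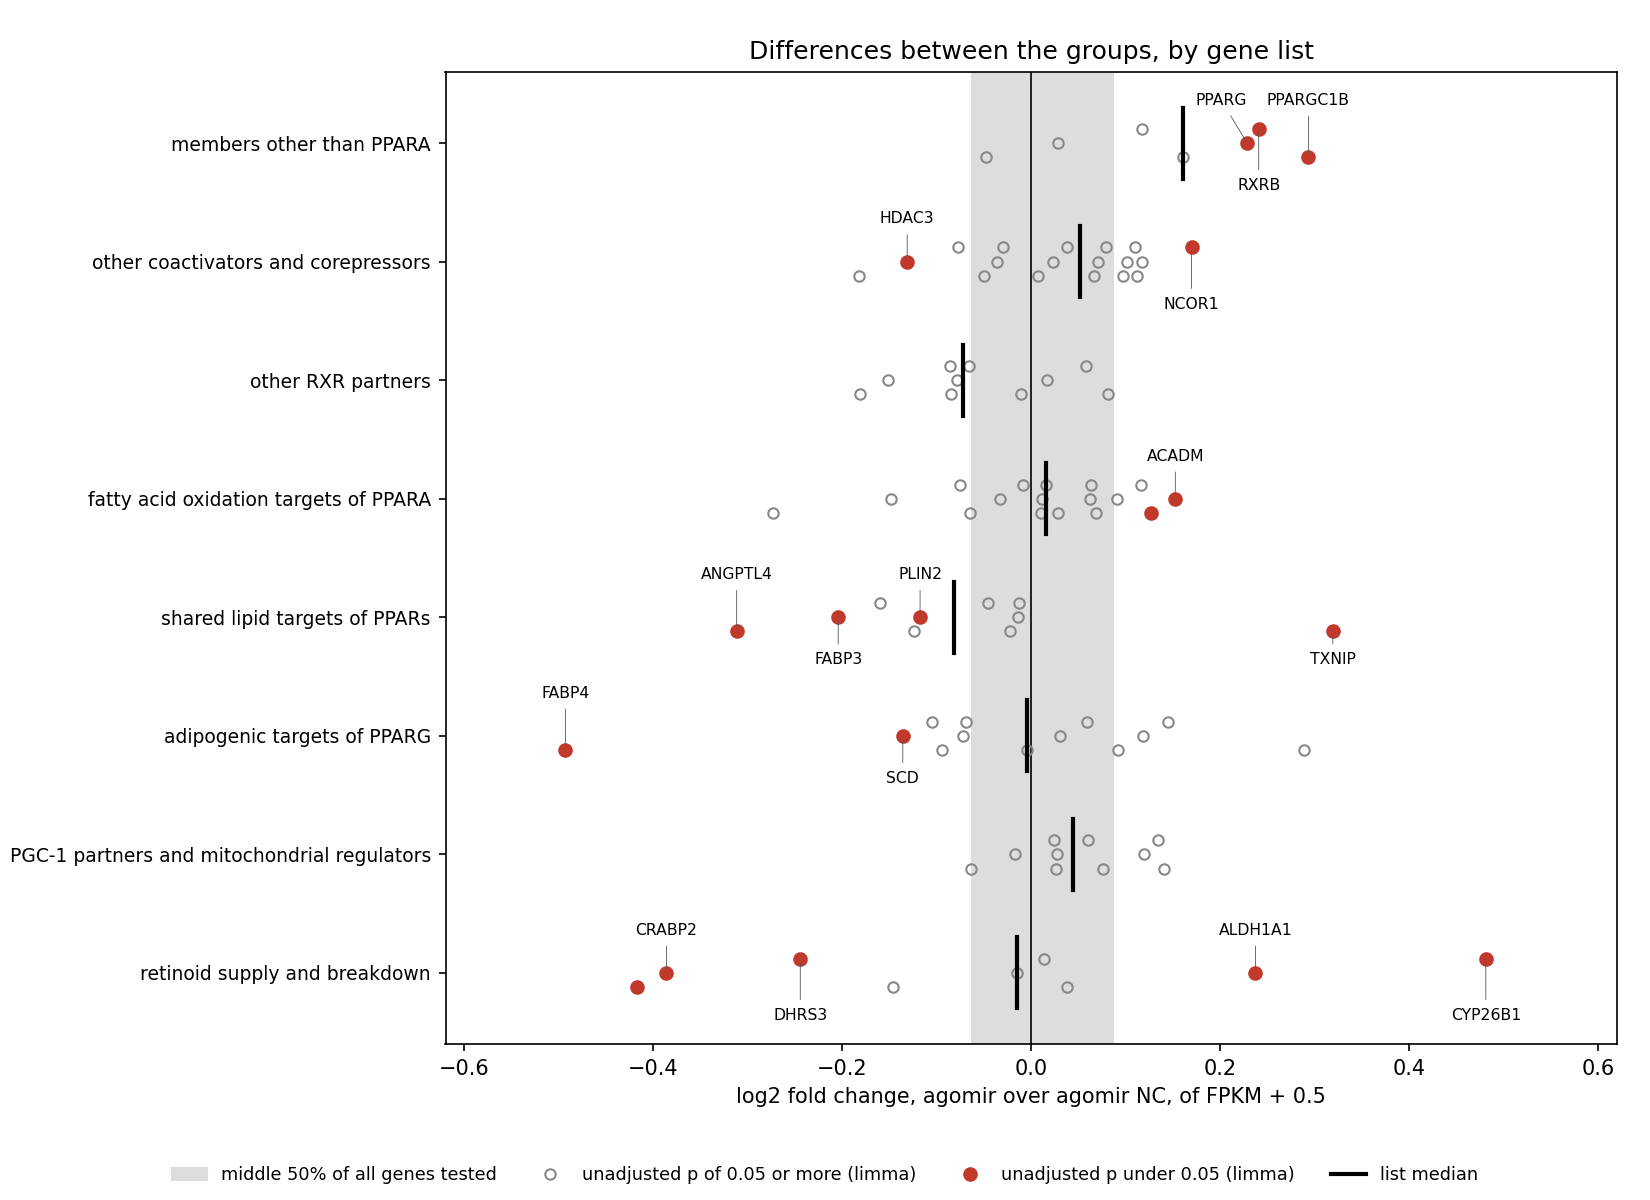
Log2 fold change of FPKM + 0.5, agomir over agomir NC, of the genes tested in each list. Filled points are genes at an unadjusted p under 0.05 in limma, labelled where the text gives their values, open points the others, black bars the medians and the gray band the middle 50% of all genes, from -0.063 to 0.087. The median is 0.16 for the family members other than PPARA and lies between -0.082 and 0.052 for the other lists.

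The 3 tested chromosomal neighbors of PPARA had log2 fold changes from 0.0061 to 0.14, and their groups overlapped. By the RefSeq table of ARS-UCD2.0, ATXN10, LOC101903200 and WNT7B lie on one side of it, and CDPF1, PKDREJ and LOC104972622 on the other. ATXN10, a gene linked to spinocerebellar ataxia, was at 43.4 ± 1.08 FPKM under the agomir and 40.7 ± 3.40 FPKM in the controls, and CDPF1 at 6.80 ± 0.472 and 6.76 ± 0.268 FPKM (SD, n = 3 each). Their log2 fold changes were 0.094 and 0.0061 (adjusted p = 0.622 and 0.987 in limma), and both overlapped, as did LOC101903200 at 0.845 ± 0.120 and 0.734 ± 0.273 FPKM (agomir and agomir NC, SD, n = 3 each). ATXN10 was at 0.034 without agomir NC replicate 2, 0.15 without agomir NC replicate 3 and 0.049 with the correction for gene span, and LOC101903200, at 0.14, was at -0.011 without agomir NC replicate 1. CDPF1 was at -0.031 without agomir replicate 3. WNT7B, PKDREJ and LOC104972622 had means under 0.5 FPKM and were not tested. LOC104972622 lay above in all agomir libraries, at 0.404, 0.435 and 0.421 FPKM against 0.319, 0.328 and 0.385 FPKM (exact permutation p = 0.1). No gene overlapping a family member in that table had a value in these data.

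The pattern of PPARA over the 6 libraries was most like that of NMT1, an enzyme that adds myristate to proteins (Pearson r of log2 values 0.998), followed by NSFL1C, CARD10, COMTD1 and MFSD5, with r from 0.996 to 0.986. Of 11251 genes with a symbol, 50 had an r over 0.95. PPARG was most like HIC1, a transcriptional repressor (r = 0.996), followed by LRRC75A, ANKRD17, MUS81 and BHLHE41, with r from 0.995 to 0.989, and 42 genes had an r over 0.95. All 10 named genes had their agomir libraries above their agomir NC libraries, as PPARA and PPARG did, which their choice by r made likely. Of all genes tested, 10.9% lay above in this way. The 6 libraries are the only points, so these r describe the step between the groups and the scatter within them together. The steps were of unequal size, from 26.8 ± 0.373 to 30.2 ± 0.683 FPKM in NMT1 and from 4.06 ± 0.383 to 5.60 ± 0.475 FPKM in COMTD1 (agomir NC to agomir, SD, n = 3 each).

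The median difference was larger in genes with a longer span on the chromosome, and most of the family are long genes. In 5 equal groups of genes by RefSeq span, from the shortest to the longest, the median log2 fold change was -0.019, 0.0027, 0.014, 0.022 and 0.045. RXRB lies among the shortest genes, PPRC1 in the middle group, PPARA and PPARG in the next, and PPARD, RXRA, PPARGC1A and PPARGC1B among the longest. With the trend removed, PPARA had a log2 fold change of 0.61, PPARG of 0.20 (unadjusted p = 0.0543 in limma), RXRA of 0.078, RXRB of 0.25 and PPARGC1B of 0.25 (unadjusted p = 0.0561). This correction was chosen after the data were seen.

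Markers of other cell types were near 0 or alike in the groups. The 5 endothelial markers summed to 4.15 ± 0.367 FPKM under the agomir and 4.27 ± 0.258 FPKM in the controls, mostly from VWF, and the 6 immune markers to 7.79 ± 0.634 and 7.88 ± 0.214 FPKM, mostly from CD14 (SD, n = 3 each). Of the 5 muscle markers 4 had a value, MYOD1 and MYOG were listed at 0 in all 6 libraries, and the sum was 0.298 ± 0.0612 and 0.296 ± 0.159 FPKM, from DES. The 4 epithelial markers, KRT18 at 0 among them and EPCAM the most abundant, summed to 0.216 ± 0.0966 and 0.335 ± 0.0885 FPKM (SD, n = 3 each).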

How the data were processed

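RNA sequencing of 6 libraries was used. An FPKM value for each gene in each library was deposited by the authors, and fastp, HISAT2, StringTie and the build ARS-UCD1.2 are named in the submitters' processing notes. The values did not give back whole reads. From FPKM, log2(FPKM + 0.5) was taken for the 12422 of 23475 genes whose mean reached 0.5 FPKM, a scale that understates differences of low genes. The groups were compared in limma 3.58.1 (R 4.3.3) by a two-sided test, with a variance trend and no replicate term, and p-values were adjusted by Benjamini-Hochberg over all genes tested. The fit was tested on simulated data. For single genes an exact permutation test over the 20 labelings was added. The members and lists were chosen with earlier results of these data known. Named genes were the members, the 2 most abundant and up to 3 most different genes of a list at an unadjusted p under 0.05, the 5 genes most like PPARA and PPARG, the neighbors of PPARA, markers that were leading or at 0, and FABP4, LPL and CEBPA. A few genes taken by this rule are not reported here. Gene spans came from RefSeq of ARS-UCD2.0, matched by name for 11471 genes. The alternatives were other pseudocounts, filters and scalings, no variance trend, a replicate block, a gene span correction and each library left out.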

Additional observations from a re-analysis of the deposited data

How the results depend on the processing

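Replicate numbers 1 to 3 occur in both groups. After subtracting group means, libraries of the same number correlated at -0.051, 0.053 and 0.039, and those of unlike numbers at -0.109 to 0.072. With 3 libraries a group this cannot show whether libraries of the same number are pairs, and their origin is not stated. The gene span correction was chosen after the data were seen. Over 15 alternatives, 700 values of 47 single genes were compared, and 22 reversed. The other 678 kept their direction and their side of the adjusted threshold in limma, or for PPARA moved by less than the SD between replicates. This count says little of stability, since many of these genes were named for their values in these same libraries. Apart from PPARA, which has no test, all stayed above an adjusted p of 0.05, the lowest being 0.09997 for TXNIP. PPARA ranged from 0.59 to 0.72 and its share of PPAR FPKM differed between the groups by 9.13 to 11.2 percentage points with 1 library left out. The genes at an adjusted p under 0.05 in limma, 1 as reported, were 0 with no filter, 0 with no variance trend and 0 in the fit with a replicate block (1604, 1249 and 1260 at an unadjusted p under 0.05), and 0 to 2 with 1 library left out (0 without agomir replicate 1 or agomir NC replicate 2, with 1220 and 1189 unadjusted). All other counts are at an unadjusted p under 0.05. Family members other than PPARA that were higher were 3, but 1 with the span correction, 2 with the replicate block, 2 at a minimum mean of 1 FPKM, 4 with no filter and 0 to 2 with 1 library left out. Coactivators and corepressors that were higher were 0 with quantile normalization, without the variance trend and with the span correction, and 0 to 2 with 1 library left out, where 0 to 1 were lower. RXR partners that were lower were 1 with a pseudocount of 0.1, no filter, no variance trend, either scaling (median-ratio or quantile) or the span correction, and 0 to 1 with 1 library left out. Fatty acid oxidation genes that were higher were 3 with no filter, 1 with median-ratio scaling, quantile normalization or the span correction, 0 without the variance trend, 0 with the replicate block and 0 to 1 with 1 library left out, while 1 was lower with the replicate block and 0 to 1 with 1 library left out. Shared lipid targets that were higher were 2 without a filter, and those lower were 1 to 3 with 1 library left out, being 1 without agomir replicate 2 or 3. Adipogenic targets that were lower were 1 without the variance trend and 1 with any library left out. PGC-1 partners that were higher were 0 to 1 with 1 library left out. Retinoid genes that were higher were 1 without a filter and 1 to 2 with 1 library left out. List medians of log2 fold change moved to -0.023 for shared lipid targets without a filter, and for adipogenic targets a minimum mean of 1 FPKM gave -0.070. With 1 library left out, medians ranged from -0.10 to 0.043 for adipogenic targets, from 0.020 to 0.067 for coactivators, from -0.078 to 0.0059 for RXR partners and from 0.0030 to 0.059 for fatty acid oxidation. The log2 fold changes that reversed were between -0.015 and 0.060 as reported, except LOC101903200 at 0.14. With the span correction PPARGC1A was -0.0096 and RARA -0.0054, with quantile normalization GABPA was -0.0064 and CDPF1 -0.019, and with median-ratio scaling CDPF1 was -0.0081. With 1 library left out the range was -0.086 to 0.12 for PPARGC1A, -0.023 to 0.039 for RARA, -0.023 to 0.063 for GABPA, -0.031 to 0.060 for CDPF1, -0.023 to 0.065 for ACADVL, -0.018 to 0.16 for YY1, -0.051 to 0.042 for RBP4, -0.021 to 0.080 for ALDH1A3, -0.023 to 0.12 for LPL and -0.011 to 0.31 for LOC101903200. The replicate block changed no other call of the adjusted threshold. Some alternatives change how many genes or libraries are fitted, and otherwise the cause was not tested. The share of higher genes among those at an unadjusted p under 0.05 was 60.6% as reported, 49.4% with median-ratio scaling, 52.5% with quantile normalization (696 higher and 629 lower) and 49.8% with the span correction (654 and 660). At a minimum of 1 FPKM, PPARGC1B was not tested. The planned description of protein and promoter sequences, with its alternative of 1 mismatch, was not run. Sequencing depth is unknown, which limits PPARGC1B, CEBPA and other genes near 0.5 FPKM most.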
